A study of Mus musculus with 6 samples.

Results

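MEIS1, PBX3 and their relatives are the homeodomain cofactors through which HOX proteins bind DNA, and 7 of their genes (Meis1, Meis2, Meis3, Pbx2, Pbx3, Pbx4 and Pknox1) were followed in mouse leukemias labelled Runx1-KO and Control. The members were chosen by name, as every probe set annotated to 1 of these symbols alone, which gave 18 probe sets for 7 of the 18194 genes measured. The arrays labelled Runx1-KO came from 3 independent leukemias that arose from C57BL/6 bone marrow in which, by the labels, Runx1 had been excised, and those labelled Control from 3 that arose from marrow with intact Runx1. In both groups the marrow had been transduced with MLL-ENL, an oncogenic fusion of a histone methyltransferase with an elongation factor, and transplanted into congenic mice, whose leukemic cells were taken when the animals were moribund. How Runx1 was excised, the age of the animals and any sorting that would remove host cells are not given in the sources used here.

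The MEIS, PBX and PKNOX proteins belong to the TALE class of homeodomain proteins, named for an extra loop of amino acids in the homeodomain. A PBX protein binds DNA beside a HOX protein and sharpens its choice of sites, and a MEIS or PKNOX protein joins PBX, keeps it in the nucleus and recruits coactivators. In leukemias with MLL fusions the fusion protein keeps HOXA9 and MEIS1 switched on, and in mouse and human MLL leukemia PBX3 is known as the PBX partner that works with them. PKNOX1, also called PREP1, competes with MEIS1 for PBX and thereby shortens the life of the MEIS1 protein.

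Promoter sequences are shown for the members with signal above background that are in RefSeq's promoter table (GRCm38.p6), because Runx1 encodes a DNA-binding protein and its recognition letters can be looked for in them. Of the 7 members, 5 were in that table. Each line gives the 250 bases before an annotated start, 5′ to 3′ on the gene's strand, in lower case, with matches to the motifs in capitals. The windows lie at chr11:19018970-19019219 on the minus strand for Meis1, chr17:34592009-34592258 on the plus strand for Pbx2 and chr8:69832374-69832623 on the plus strand for Pbx4.
Meis1: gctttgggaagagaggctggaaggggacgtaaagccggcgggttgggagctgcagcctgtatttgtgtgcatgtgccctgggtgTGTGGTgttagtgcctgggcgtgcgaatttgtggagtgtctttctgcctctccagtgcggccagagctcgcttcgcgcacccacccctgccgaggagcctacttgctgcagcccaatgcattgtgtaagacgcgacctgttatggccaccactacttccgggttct
Pbx2: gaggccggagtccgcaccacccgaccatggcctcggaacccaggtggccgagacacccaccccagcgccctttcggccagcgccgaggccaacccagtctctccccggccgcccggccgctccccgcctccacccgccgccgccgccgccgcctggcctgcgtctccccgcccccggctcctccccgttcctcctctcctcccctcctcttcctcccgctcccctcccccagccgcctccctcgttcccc
Pbx4: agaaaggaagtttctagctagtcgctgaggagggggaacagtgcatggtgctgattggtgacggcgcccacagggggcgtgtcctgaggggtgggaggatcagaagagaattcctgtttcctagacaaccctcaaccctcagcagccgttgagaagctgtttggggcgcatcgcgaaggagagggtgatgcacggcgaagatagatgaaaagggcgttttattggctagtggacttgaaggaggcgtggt

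The letters searched on both strands were TGTGGT, bound by RUNX proteins, TGACAG, bound by MEIS and PKNOX proteins, and TGATTNAT, bound by PBX together with HOX proteins. Among 32851 promoter windows of the same length, 14.05% held the RUNX letters, 15.86% the MEIS and PKNOX letters and 2.82% the PBX and HOX letters. The Meis1 window held 1 RUNX match, whose first base lay 166 bases before the start, and no match overlapped another. The Pbx2 and Pbx4 windows held 0 matches. CpG dinucleotides numbered 13 in the Meis1 window, 27 in that of Pbx2 and 12 in that of Pbx4, against a median of 6 over all windows. A match is a description of letters and was not tested for binding.

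Intensities had been deposited on a common linear scale, with a median per array of 24.4 to 25.99. A background limit was set on each array from 27 spike-in probe sets whose target had not been added, by taking the brightest of them, and lay between 14.1 and 22.5. The number of arrays limits the precision. Runx1 itself had more signal in the arrays labelled Runx1-KO on all 6 of its probe sets, which is opposite to the label, by 1.70- to 3.18-fold and without overlap on 5 of them. None passed over all probe sets (lowest limma adjusted p = 0.228). The brightest read 1128, 1573 and 1630 in Runx1-KO 1, 2 and 3, against 680.3, 1022 and 850.0 in Control 1, 2 and 3 (limma adjusted p = 0.322 over all genes). Where these probe sets lie relative to the excised part is not given, so the loss of Runx1 was not checked, and every direction given here rests on the labels. Sex and group cannot be told apart, since the signal of Xist, which is transcribed in female cells, differed between the groups. It read 1624 to 1895 in leukemias labelled Runx1-KO and 330.8, 85.4 and 25.3 in Control 1, 2 and 3. Gapdh signal at the 3′ end over that at the 5′ end, a ratio that rises as RNA degrades, was 7.10 in Runx1-KO 1 and 2.67 to 3.02 in the other 5 arrays. The red cell gene Alas2 read 814.5 in Control 1 and 4.73 to 16.6 in the other 5. Every array carried strong signal of the myeloid genes S100a8 (3213 to 6478) and Csf1r (843.9 to 1983), while the T cell marker Cd3e (2.03 to 34.2) was below background in every array labelled Runx1-KO and above it in 2 Control arrays.

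Pbx3 was the member with the widest separation between the groups, with lower signal in the leukemias labelled Runx1-KO on both of its probe sets. Its brightest probe set, 1421193_a_at, read 88.7, 44.2 and 50.2 in Runx1-KO 1, 2 and 3, against 113.4, 150.5 and 158.2 in Control 1, 2 and 3. All 3 arrays labelled Runx1-KO lay below all 3 Control arrays, with Runx1-KO 1 closest to them. The log2 difference was -1.26 ± 0.32 (SE, n = 3 per group), a geometric mean of 58.1 against 139.2 and 2.39-fold lower. It did not pass over all genes (limma adjusted p = 0.244), and it ranked 513 by p among 18194. Permuting the arrays gave an exact two-sided p of 0.1, the smallest that 3 against 3 allow. Every probe set without overlap gives this value, so here and below it adds nothing to the lack of overlap.

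The other Pbx3 probe set, 1447640_s_at, has a suffix that marks probes shared between transcripts of more than 1 gene. It read 16.7, 16.4 and 37.0 in Runx1-KO 1, 2 and 3, against 65.4, 81.6 and 59.1 in Control 1, 2 and 3. The groups again did not overlap, but only Runx1-KO 3 was above the background limit in its group. With the 2 dim arrays raised to their limits the signal was at least 2.94-fold lower in the Runx1-KO group. The values before raising gave a limma adjusted p of 0.250 over all probe sets and an exact permutation p of 0.1. In RNA of many cells together, fewer cells that express a gene and less RNA per cell cannot be told apart. Left out in turn, no single array brought Pbx3 past the threshold. Its log2 difference on the brightest probe set was -1.56 without Runx1-KO 1 (adjusted p = 0.138) and ran from -1.41 to -1.06 without each of the other 5.

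Meis1 lay the other way, with a smaller difference of about the same size on each of its 3 probe sets. The brightest, 1459423_at, read 154.7, 365.0 and 219.8 in Runx1-KO 1, 2 and 3, against 145.2, 204.5 and 141.1 in Control 1, 2 and 3. Its groups overlapped, because Runx1-KO 1 lay below Control 2. The log2 difference was 0.52 ± 0.36 (SE, n = 3 per group), or 1.44-fold, and did not pass (limma adjusted p = 0.582, exact permutation p = 0.2). It was 0.19 without Runx1-KO 2, the highest array, and 0.81 without Runx1-KO 1, the array with the high Gapdh ratio.

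On the Meis1 probe set 1443260_at the intensities were 126.95, 148.4 and 106.1 in Runx1-KO 1, 2 and 3, against 82.4, 104.0 and 76.8 in Control 1, 2 and 3. On 1450992_a_at they were 65.7, 56.8 and 64.98 in Runx1-KO 1, 2 and 3, against 35.6, 40.1 and 46.8 in Control 1, 2 and 3. On both of these the groups did not overlap, narrowly on the first. The log2 differences were 0.53 ± 0.24 (1.45-fold, limma adjusted p = 0.463) and 0.62 ± 0.21 (1.54-fold, limma adjusted p = 0.372), neither past the threshold, and an exact permutation test gave p = 0.1 for each. Runx1-KO 2 was the highest of its group on the first 2 probe sets and the lowest on 1450992_a_at, so the probe sets of Meis1 did not order the arrays alike. The suffix _a_at marks probes shared by several transcripts of 1 gene.

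**Figure D1:**
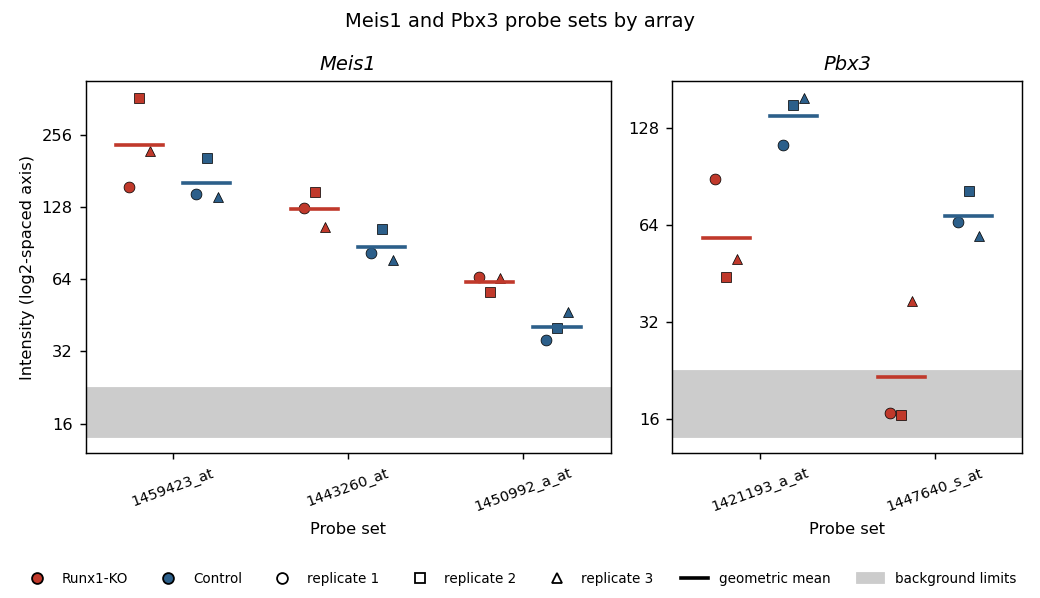
Intensity of each Meis1 and Pbx3 probe set (log2-spaced axis) on the 3 arrays labelled Runx1-KO (red, left of each pair) and the 3 Control arrays (blue, right), with marker shape for the replicate, bars for geometric means and a grey band for the range of background limits, 14.1 to 22.5. Both Pbx3 probe sets lie lower in all arrays labelled Runx1-KO, and 2 of the 3 Meis1 probe sets lie higher in all of them.

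Meis2 and Meis3, the other MEIS genes, had no signal above background on any array. The 4 Meis2 probe sets read 1.35 to 7.70 in leukemias labelled Runx1-KO and 1.34 to 7.94 in Control. The Meis3 probe set read 6.43, 14.0 and 17.4 in Runx1-KO 1, 2 and 3, against 16.6, 10.9 and 12.6 in Control 1, 2 and 3. No fold is given for either gene. Among the MEIS genes, then, Meis1 alone was measured above background in these leukemias.

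Pknox1, which encodes the MEIS competitor PREP1, was above background on all arrays. Its brightest probe set, 1421233_at, read 312.2, 483.0 and 288.0 in Runx1-KO 1, 2 and 3, against 301.1, 407.8 and 414.2 in Control 1, 2 and 3. The groups overlapped, with Runx1-KO 2 the highest of the 6 arrays, and the log2 difference was -0.08 ± 0.27 (limma adjusted p = 0.933). Its 95% interval ran from -0.74 to 0.59. The probe sets 1437470_at and 1450172_at had log2 differences of -0.43 ± 0.32 and -0.41 ± 0.33 (limma adjusted p = 0.644 and 0.677). On both, Runx1-KO 1 and 3 lay below every Control array and Runx1-KO 2 lay among them or above them. Their values were 46.6, 98.2 and 71.0 against 83.1, 105.5 and 91.5 on the first, and 209.1, 452.6 and 245.4 against 348.0, 384.7 and 404.8 on the second, Runx1-KO 1, 2 and 3 before Control 1, 2 and 3 in each.

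Pbx2, the PBX gene expressed in most tissues, was close to equal between the groups on all 3 probe sets. The brightest, 1418894_s_at, read 668.1, 563.3 and 740.8 in Runx1-KO 1, 2 and 3, against 643.0, 762.7 and 573.7 in Control 1, 2 and 3. Its suffix, like that of the dimmer Pbx3 probe set, marks probes shared between transcripts of more than 1 gene. The log2 difference was -0.004 ± 0.21 (geometric means of 653.3 and 655.3, limma adjusted p = 0.997), with a 95% interval of -0.51 to 0.50. The probe sets 1418893_at and 1449261_at differed by 0.13 ± 0.19 and 0.04 ± 0.28 (limma adjusted p = 0.833 and 0.971). On 1418893_at the arrays lay closest together, at 199.8, 192.0 and 214.7 in Runx1-KO 1, 2 and 3, against 193.4, 188.5 and 172.4 in Control 1, 2 and 3. On 1449261_at they ranged from 279.0 to 502.3 in leukemias labelled Runx1-KO and from 324.1 to 409.1 in Control.

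Pbx4, a PBX gene best known from the testis, lay not far above background. Its brightest probe set, 1454912_at, read 34.4, 44.6 and 46.4 in Runx1-KO 1, 2 and 3, against 63.3, 56.9 and 48.0 in Control 1, 2 and 3. The groups did not overlap, by a narrow margin between Runx1-KO 3 and Control 3. The log2 difference was -0.43 ± 0.22, or 1.34-fold lower, and did not pass (limma adjusted p = 0.466, exact permutation p = 0.1). The probe set 1449916_at was above background only in Control 2, at 22.9, and gave no fold.

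**Figure D2:**
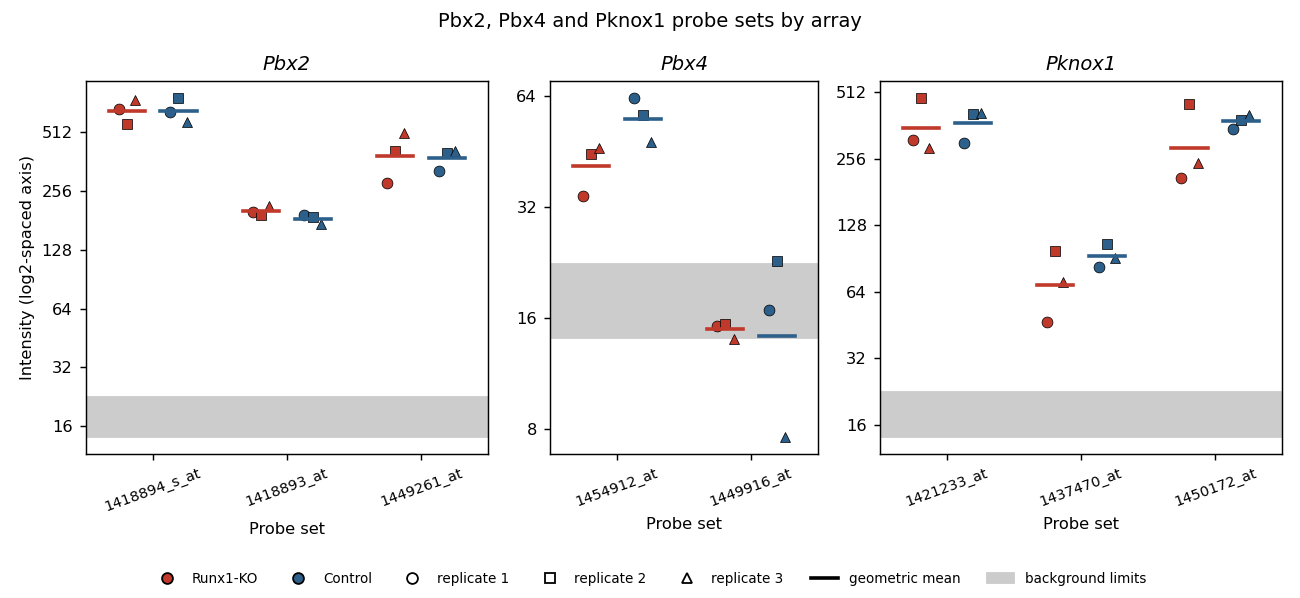
Intensity of each Pbx2, Pbx4 and Pknox1 probe set (log2-spaced axis) on the 3 arrays labelled Runx1-KO (red, left of each pair) and the 3 Control arrays (blue, right), with marker shape for the replicate, bars for geometric means and a grey band for the background limits. The groups overlap on all of these probe sets except Pbx4 1454912_at, where the arrays labelled Runx1-KO read 34.4 to 46.4 and Control 48.0 to 63.3.

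Over all genes, limma called 6 genes with more signal and 10 with less in leukemias labelled Runx1-KO at an adjusted p under 0.05, which is 0.033% and 0.055% of 18194, and 0 of the 7 members were among them. The 16 calls fell to 2 or 3 when any 1 array was left out, and numbered 104 with a variance trend and robust fitting, again with 0 members. At an unadjusted p under 0.05 there was 1 member, Pbx3, against 12.6% of all genes. The groups did not overlap in 2 of the 7 members, Pbx3 and Pbx4, against 20.9% of all genes. Over the 45037 probe sets that are not controls, 0.0688% were called and 0 of the 18 member probe sets were. The groups did not overlap in 5 of those 18, against 19.2% of all probe sets. With so few members these shares do not set the genes apart from the rest. The median log2 difference of the 7 members was -0.08 (-0.004 with the genes below background set to 0), against -0.01 over all genes.

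**Figure D3:**
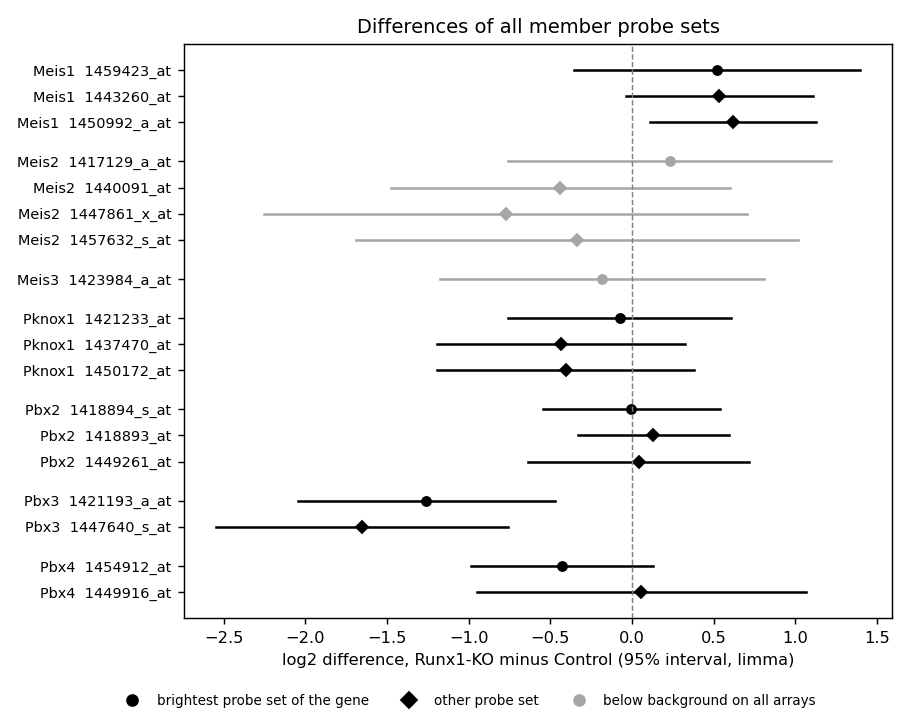
The log2 difference between Runx1-KO and Control of all 18 member probe sets (x axis), with 95% intervals from the fit over all probe sets. Circles mark the brightest probe set of a gene, diamonds the others, and grey marks probe sets below background on all 6 arrays. The intervals of both Pbx3 probe sets and of Meis1 1450992_a_at do not cross 0, although none passed after adjustment.

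Markers of blood cell types and of stroma were set beside the members, since the sources used do not say whether the samples were sorted. S100a8 and Csf1r, strong on every array, are among them. Whether leukemic or other cells gave the signal of these markers cannot be told apart here. Mature neutrophil markers had more signal in leukemias labelled Runx1-KO in 9 of 9 measured genes, with a median log2 difference of 1.41. Their summed intensity was 15285 to 18006 there and 8218 to 12280 in Control. Most of this sum came from S100a8 and S100a9, which were 1.41- and 1.44-fold higher. Of 6 measured markers of monocytes and macrophages, 5 were lower, with sums of 2781 to 3106 in leukemias labelled Runx1-KO and 4183 to 6169 in Control. Markers of megakaryocytes and platelets were higher in 7 of 7, with sums of 542.2 to 823.9 in leukemias labelled Runx1-KO and 200.4 to 341.9 in Control. Only 3 of these 7 were above background on all arrays. The median log2 difference of the 7 was 1.20, and 0.81 with dim arrays raised to their limits. Of all 7 marker lists 0 genes passed over all genes. For these 3 lists the lowest limma adjusted p-values were 0.0523 (neutrophil), 0.154 (monocyte and macrophage) and 0.179 (megakaryocyte). At an unadjusted p under 0.05 there were 7 neutrophil, 4 monocyte and macrophage and 3 megakaryocyte markers, against 12.6% of all genes. T and NK cell markers were lower in 6 of 6. At an unadjusted p under 0.05 there were 4, against 12.6% of all genes, and 4 were without overlap, against 20.9%. Both counts include Ncr1, which was below background on every array. The lowest limma adjusted p was 0.142, and 0 of these markers were above background on all arrays. Their median log2 difference was -1.25, and -0.36 with dim arrays raised to their limits and Ncr1 set to 0. The marker lists were chosen with earlier results of these data known, so their shares are descriptions, and an excess was not tested. The part of any of these marker lists in the values of Pbx3 and Meis1 was not tested. Erythroid markers (5 measured, sums of 49.4 to 173.7 in leukemias labelled Runx1-KO and 81.8 to 3843 in Control) stood apart in Control 1, and without that array the log2 difference of Pbx3 was -1.41 and that of Meis1 0.45. Markers of T and NK cells summed to 35.2 to 61.7 in leukemias labelled Runx1-KO. In Control 1, 2 and 3 they summed to 256.4, 98.5 and 86.0, so Control 1 stood apart here too. Markers of B cells summed to 163.7 to 310.4 against 206.1 to 271.4, Runx1-KO before Control. Those of stroma and endothelium summed to 158.8 to 216.2 against 130.9 to 320.8 in the same order.

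The HOX proteins are the partners that the members serve. Of 21 genes of the HOXA and HOXB clusters, 18 were measured and 0 passed, with 12 higher and 6 lower. The median log2 difference was 0.28. With dim arrays raised to their limits, and genes set to 0 if dim on every array or reversed by the raising, it was 0.12. The groups did not overlap in 4 of the 18, or 22.2%, close to the 20.9% of all genes. These counts include 6 genes below background on every array, and Hoxb1, 1 of the 4, is among them. Hoxa2 had the lowest p, at 59.6, 54.9 and 42.7 in Runx1-KO 1, 2 and 3 and 31.0, 32.7 and 29.8 in Control 1, 2 and 3 (log2 difference 0.74 ± 0.20, limma adjusted p = 0.264). Hoxb1 and Hoxb13, the next by p, were below background on every array. Hoxa9, named here because it is the partner of Meis1 and after its values were seen, was strongly expressed on all 6 arrays, at 3185, 3282 and 3114 in Runx1-KO 1, 2 and 3 and 2791, 2971 and 2820 in Control 1, 2 and 3, without overlap. Its log2 difference was 0.16 ± 0.16 (limma adjusted p = 0.729).

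The remaining TALE homeobox genes, of the IRX, MKX and TGIF families, were mostly below background. Of 9 measured, 5 were below background on every array and 0 passed. Tgif1, a repressor of TGF-beta and retinoid responses, read 54.4, 48.7 and 53.9 in Runx1-KO 1, 2 and 3 and 61.1, 94.7 and 57.9 in Control 1, 2 and 3. These groups did not overlap, and the log2 difference of -0.41 ± 0.24 did not pass (limma adjusted p = 0.531). Irx6 had a difference of 0.39 ± 0.25 (limma adjusted p = 0.561), and Irx4, with the lowest p of the list, was below background on every array.

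Among the coregulators that MEIS, PBX and PKNOX proteins bind, Creb1 and Crtc3 lay furthest apart, while the CREB coactivator genes Crtc1, Crtc2 and Crebbp had log2 differences of 0.23, 0.06 and 0.07. Of 12 listed, 10 were measured and 0 passed, with 6 higher and 4 lower and a median log2 difference of 0.07. Creb1 encodes the factor CREB, which MEIS1 recruits together with its CRTC coactivators. Its brightest probe set read 343.9, 266.8 and 192.2 in Runx1-KO 1, 2 and 3, against 617.1, 553.0 and 608.7 in Control 1, 2 and 3. The log2 difference was -1.19 ± 0.26, or 2.28-fold lower (limma adjusted p = 0.200), and on all 5 of its probe sets above background the groups did not overlap, with log2 differences of -1.23 to -0.78. Crtc3, a CREB coactivator, lay the other way, at 212.8, 113.9 and 117.0 in Runx1-KO 1, 2 and 3 and 52.8, 69.5 and 79.7 in Control 1, 2 and 3. Its log2 difference was 1.09 ± 0.32 (limma adjusted p = 0.287), and 0.63 without both arrays numbered 1. Hdac1, a histone deacetylase bound by PBX complexes, had a difference of -0.42 ± 0.23 (limma adjusted p = 0.488).

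Genes reported downstream of HOXA9 and MEIS1 lay in both directions. Of 16 measured, 0 passed, 6 were higher and 10 lower, and the median log2 difference was -0.17 (-0.16 with arrays below background raised to their limits). The groups did not overlap in 9 of them, 3 higher and 6 lower, which is 56.2% of the list against 20.9% of all genes. Of the 16, 13 were above background on all arrays, and of all genes above background on all arrays 26.4% had groups that did not overlap. The list was chosen with earlier results of these data known, so its share is a description, and an excess was not tested. Msi2, an RNA-binding protein that keeps leukemic cells immature, read 155.2, 223.8 and 180.9 in Runx1-KO 1, 2 and 3, against 52.9, 37.8 and 62.7 in Control 1, 2 and 3. That is 3.69-fold higher, a log2 difference of 1.88 ± 0.27 (limma adjusted p = 0.112), and the groups did not overlap on any of its 4 probe sets with signal above background. The other probe set measured on all arrays differed by 1.96 on the log2 scale, and the remaining 2, each with 1 Control array below background, by at least 1.84 and 2.11. Msi2 passed with an offset of 16 added before the log (limma adjusted p = 0.0424) and with a variance trend and robust fitting (limma adjusted p = 0.0267). Bcl2, the survival gene, read 649.1, 255.0 and 315.8 in Runx1-KO 1, 2 and 3, against 840.8, 868.0 and 1192 in Control 1, 2 and 3 (log2 difference -1.35 ± 0.39, limma adjusted p = 0.284). Ccl4, a chemokine, read 23.9, 7.44 and 6.47 in Runx1-KO 1, 2 and 3, against 108.7, 28.0 and 40.9 in Control 1, 2 and 3. With only Runx1-KO 1 of its group above background, the signal was lower by at least 2.43-fold. The values before raising to the limits gave a limma adjusted p of 0.300.

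Of 11 genes of MLL complexes and other regulators upstream of Meis1, 11 were measured and 0 passed, 6 higher and 5 lower, with a median log2 difference of 0.14. The groups did not overlap in 2 of the 11, or 18.2%, against 20.9% of all genes. These were Aff4 and Aff1, scaffolds of the elongation complex that MLL-ENL recruits, on their brightest probe sets. Aff4 read 638.5, 791.7 and 660.9 in Runx1-KO 1, 2 and 3 and 420.0, 418.4 and 411.7 in Control 1, 2 and 3, a log2 difference of 0.74 ± 0.18 (limma adjusted p = 0.228). Aff1 read 945.5, 856.0 and 928.7 in Runx1-KO 1, 2 and 3 and 581.6, 618.5 and 531.7 in Control 1, 2 and 3, a log2 difference of 0.66 ± 0.17 (limma adjusted p = 0.251). Their other probe sets, 2 for each gene, had overlapping groups. Mllt10, which encodes the partner of the methyltransferase DOT1L, had a difference of 0.45 ± 0.25 (limma adjusted p = 0.503), and 2 of its 4 probe sets were lower.

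**Figure D4:**
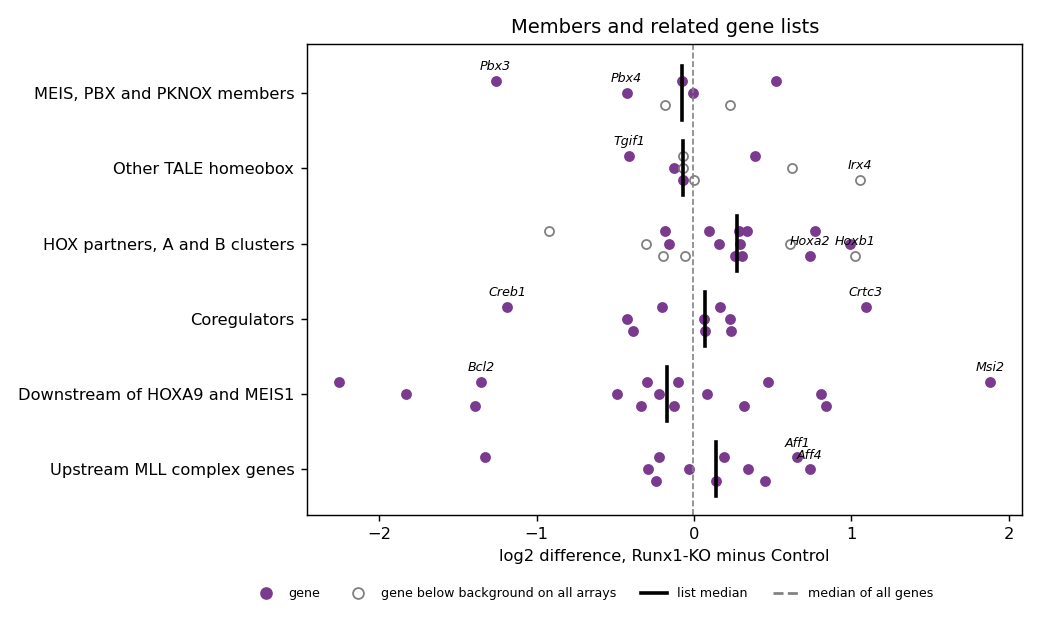
Log2 difference between Runx1-KO and Control (x axis) of each gene on its brightest probe set, for the 7 members and the 5 related lists (rows). Filled points are genes, open points genes below background on all arrays, thick bars list medians and the dashed line the median of all genes, -0.01. Ccl4, the lowest point, is drawn at its fitted value. Names mark the 2 genes of lowest p in each row. Pbx3 at -1.26 lies apart from the other members, and 0 genes of any row passed over all genes.

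The genes whose levels followed Pbx3 and Meis1 most closely over the 6 arrays were found by the root mean square difference between log2 levels, each centred on the gene's own mean, among 9702 other genes above background on all arrays. For Pbx3 they were Kifap3, a kinesin adaptor (0.10), Vps13c, a lipid transfer protein (0.13), and Bcl2 (0.17), while Pbx3 itself varied around its mean by 0.72. Their log2 differences were -1.08 ± 0.34, -1.36 ± 0.33 and -1.35 ± 0.39, and none passed (limma adjusted p = 0.305, 0.228 and 0.284). On these brightest probe sets, as on that of Pbx3, Runx1-KO 1 lay nearest to Control. This pattern was not shared by the other Pbx3 probe set, on which Runx1-KO 3 lay nearest, at 37.0. The other Kifap3 probe set did not share the pattern, with Runx1-KO 1 the highest of all 6 arrays at 142.6 and a log2 difference of -0.43 with overlap. The other Vps13c probe set differed by -0.15. For Meis1 the closest were E030024N20Rik (0.11), the histone variant gene Macroh2a2 (0.12) and Kazald1 (0.12), while Meis1 varied around its mean by 0.48. All 3 were highest in Runx1-KO 2, and their log2 differences were 0.61 ± 0.39, 0.53 ± 0.39 and 0.44 ± 0.32. They followed the brightest Meis1 probe set, 1459423_at. On Meis1 1450992_a_at Runx1-KO 2 was instead the lowest of its group, at 56.8. The likeness of these genes is a description over 6 arrays chosen from the 9702 genes compared.

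**Figure D5:**
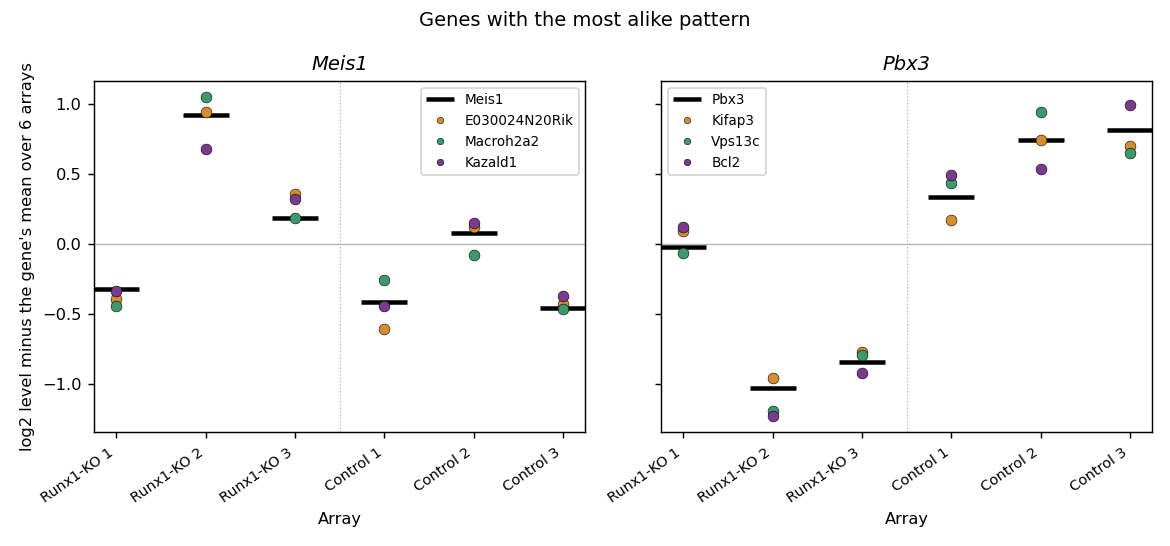
Log2 level minus the gene's own mean over the 6 arrays (y axis), by array (x axis, Runx1-KO left of Control), for Meis1 and Pbx3 (black bars) and the 3 genes with the most alike pattern to each (coloured points). Each gene is shown on its brightest probe set. The root mean square difference from the member was 0.11 to 0.12 for Meis1 and 0.10 to 0.17 for Pbx3.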

How the data were processed

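Total RNA of 6 leukemias had been purified and labelled with biotin as fragmented cDNA, per the labels' protocols. The table deposited by the authors held 1 linear intensity per probe set and array for 45101 probe sets, with a floor of 1. Their probe summary, background correction and normalization are not stated in the labels or headers used.

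Symbols came from the platform annotation. Of the probe sets, 34958 had 1 symbol, 932 several and 9211 none, and only those with 1 were named. Entrez identifiers of 34754 were looked up in RefSeq (GRCm38.p6) and 0 symbols changed. For each of 18194 genes the probe set with the highest mean over the 6 arrays was used.

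Intensities were taken to log2 and a linear model (limma 3.58.1, lmFit with eBayes, two-sided) was fitted in R 4.3.3 without covariates or filter. P-values were adjusted by Benjamini-Hochberg over all genes, with 0.05 as threshold. A second fit covered the 45037 probe sets that are not controls. The fit was tested on simulated data. Differences are Runx1-KO minus Control with the moderated standard error. Where 1 group had arrays at or below their background limit, those were raised to it, which gives a lower bound of the fold. No fold is given where all arrays were dim.

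Members and lists were chosen with earlier results of these data known. All 7 members and, from each list, the 3 genes of lowest p were named, with Runx1 and the 3 genes most alike to Meis1 and to Pbx3. Replicates came from independent leukemias. Alternatives were another normalization, an offset, a filter, other probe sets, other variance models, the replicate number as a block and leaving out arrays.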

Additional observations from a re-analysis of the deposited data

How the results depend on the processing

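The number of genes called, 16, was 15 with quantile normalization, 19 with median centring and 19 with the mean over probe sets. It was 64 with an offset of 16 before the log, 34 over genes above background on at least 3 arrays, 104 with a variance trend and robust fitting, 71 with array weights, 2 to 3 with 1 array left out and 0 without both arrays numbered 1, and the cause was not tested. With the replicate number as a block (replicate block) it was 0. The numbers did not pair the arrays, since deviations from the group means of same-numbered arrays correlated at -0.01, -0.17 and 0.06 across 9703 genes, and no Runx1-KO array correlated best with the Control array of its own number. Members called were 0 under every one of these settings as genes, and as probe sets under all of them except the mean over probe sets, which gives no value per probe set. The adjusted p of Pbx3 ran from 0.0727 with array weights to 0.493 without Control 3. The direction of Pbx3 and of Meis1 was kept under all settings, at -1.71 to -1.06 and 0.19 to 0.81. Of the related lists 0 genes were called, and 1 with the offset and 1 with the variance trend and robust fitting, Msi2 in both (adjusted p = 0.0424 and 0.0267).

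Values near 0 changed sign. Pbx2 had a log2 difference of 0.0318 with quantile normalization, 0.0555 with the mean over probe sets, 0.0408 on its second brightest probe set and 0.14 with array weights, and -0.10 to 0.11 with 1 array left out. Its probe set 1449261_at ran from -0.15 to 0.28 with 1 array left out. Pknox1 ran from -0.31 to 0.0677 in the same way. Pbx4 was 0.0579 on its second brightest probe set, 1449916_at, which itself was -0.0103 with the offset and ran from -0.40 to 0.40 with 1 array left out. Signal near background limits what can be said of Pbx4 and of the dimmer Pbx3 probe set.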
